A study of Mus musculus with 16 samples.

Results

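Integrins and laminins were followed across all 16 arrays as the genes whose array name is Itga or Itgb plus a number, a single letter or 2b, or Lama, Lamb or Lamc plus a number. The rule itself reads only names. It gave 80 of 41174 probes, which read 36 of 28095 gene names: 17 integrin alpha chains, 8 integrin beta chains and 11 laminin chains. For 35 of the genes, with 62 probes, at least 1 array showed a signal well above background, and these were tested. Itga2, a collagen-binding alpha chain, stayed below that mark with both of its probes.

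The study made induced pluripotent stem (iPS) cells from mouse embryonic fibroblasts (MEFs) with a human artificial chromosome, a vector that is kept apart from the host chromosomes and can be lost. The iHAC1 vector carried 2 copies each of Klf4, c-Myc, Sox2 and Oct4, driven by the CAG promoter. The iHAC2 vector held in addition 2 further Oct4 copies and a p53 knockdown construct, a hairpin RNA driven by the H1 promoter. Total RNA was labelled with Cy3, and every sample was put on its own 1-colour Agilent whole mouse genome array. The groups were MEFs (C57BL/6, 1 array), the embryonic stem (ES) cell lines B6ES (C57BL/6) and TT2 (C57BL/6 x CBA F1), the iPS line 20D17 made with retrovirus vectors (C57BL/6 x DBA, 1 array), 4 iHAC1-iPS clones (1-A3, 1-B, 1-C3, 1-D6), 4 clones made with iHAC2 (iHAC2-iPS) and 4 iHAC-free iPS lines (all C57BL/6). Each iHAC-free line was derived from an iHAC2-iPS clone and had lost the vector, F-B1 from 2-B1, F-C5 from 2-C6, F-E4 from 2-E and F-N7 from 2-N. The MEFs that gave the iHAC clones had also received miRNA mimics (miR-294 and miR-295). The ES lines were kept on MEF feeder layers and the iPS clones were raised on them, so an RNA sample could hold feeder RNA. Each replicate was a separate clone or line measured once, and p-values therefore describe the spread between clones or lines.

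Integrins are cell surface receptors made of an alpha and a beta chain, and the pairing of the chains sets whether a receptor binds laminin, collagen, fibronectin or a ligand on another cell. Laminins are basement membrane proteins, each assembled from an alpha, a beta and a gamma chain. Mouse ES cells make laminins of the embryonic basement membrane and hold on to them through beta1 integrins, of which alpha6 beta1 is the best known laminin receptor. Laminin-332, which holds the products of Lama3 and Lamb3, is a laminin of epithelia and is bound by alpha3 beta1 and by alpha6 beta4.

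Levels below are log2 of the background-subtracted signal relative to the 75th percentile of the same array, which is 0 on this scale. They compare arrays for 1 probe and not probes with each other. The share of spots well above background ranged from 54.2% to 65.8% over the arrays, with 0 saturated spots. A gene was called with a limma adjusted p (Benjamini-Hochberg over all 31415 tested probes) under 0.05 and a difference of at least 2-fold. The labels were checked on marker genes. In iHAC1-iPS clones 6 of 8 pluripotency markers were called lower than in ES cells and Pou5f1 (Oct4), which the vector carries, was called higher. All 14 fibroblast markers were well above background in every group, and 6 were called higher in iHAC1-iPS clones than in ES cells and none was called in iHAC2-iPS or iHAC-free iPS cells against ES cells. The mean log2 level of those 14 markers was 0.00 in B6ES and 1.40 in TT2, lay between 1.83 and 2.73 in iHAC1-iPS clones, between 0.54 and 2.41 in iHAC2-iPS clones and between 1.41 and 2.20 in iHAC-free lines, and was 3.33 in MEFs. ES, MEF, 20D17 and iHAC1-iPS arrays were scanned in 1 session, and iHAC2-iPS and iHAC-free arrays in another with a later version of the scanner software, so session and group cannot be told apart in comparisons across these sets.

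Calls on members were most frequent where iHAC1-iPS clones entered the comparison, and so were calls over all gene names. Against ES cells, 7 of 35 genes were called in iHAC1-iPS clones (20.0%, against 14.7% of 21213 gene names read in the same way), 4 higher and 3 lower (6.80% and 7.88% of all gene names). Against ES cells, 2 of 35 were called in iHAC2-iPS clones, both higher (5.71%, against 6.27% of all gene names, 3.41% higher and 2.86% lower). No member was called between iHAC-free lines and ES cells, where 0.363% of all gene names were called (0.160% higher, 0.203% lower). There 6 of 35 members had an unadjusted limma p under 0.05, a smaller share than the 20.2% of all gene names. Between iHAC1-iPS and iHAC2-iPS clones 11 members were called (31.4%, against 20.3%), 2 higher and 9 lower in iHAC1-iPS clones (8.39% and 11.9% of all gene names). Between iHAC1-iPS clones and iHAC-free lines 6 were called (17.1%, against 20.5%), all lower in iHAC1-iPS clones (8.74% of all gene names were higher and 11.8% lower). Between iHAC2-iPS clones and their iHAC-free derivatives no member was called (0.764% of all gene names, 0.226% higher and 0.537% lower). Here 5 of 35 members had an unadjusted limma p under 0.05, again a smaller share than the 19.2% of all gene names. The share of members called was above that of all gene names in iHAC1-iPS clones against ES cells and against iHAC2-iPS clones, and near or below it in the other 4 comparisons. Comparisons that share a group share its arrays and are not independent.

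**Figure D1:**
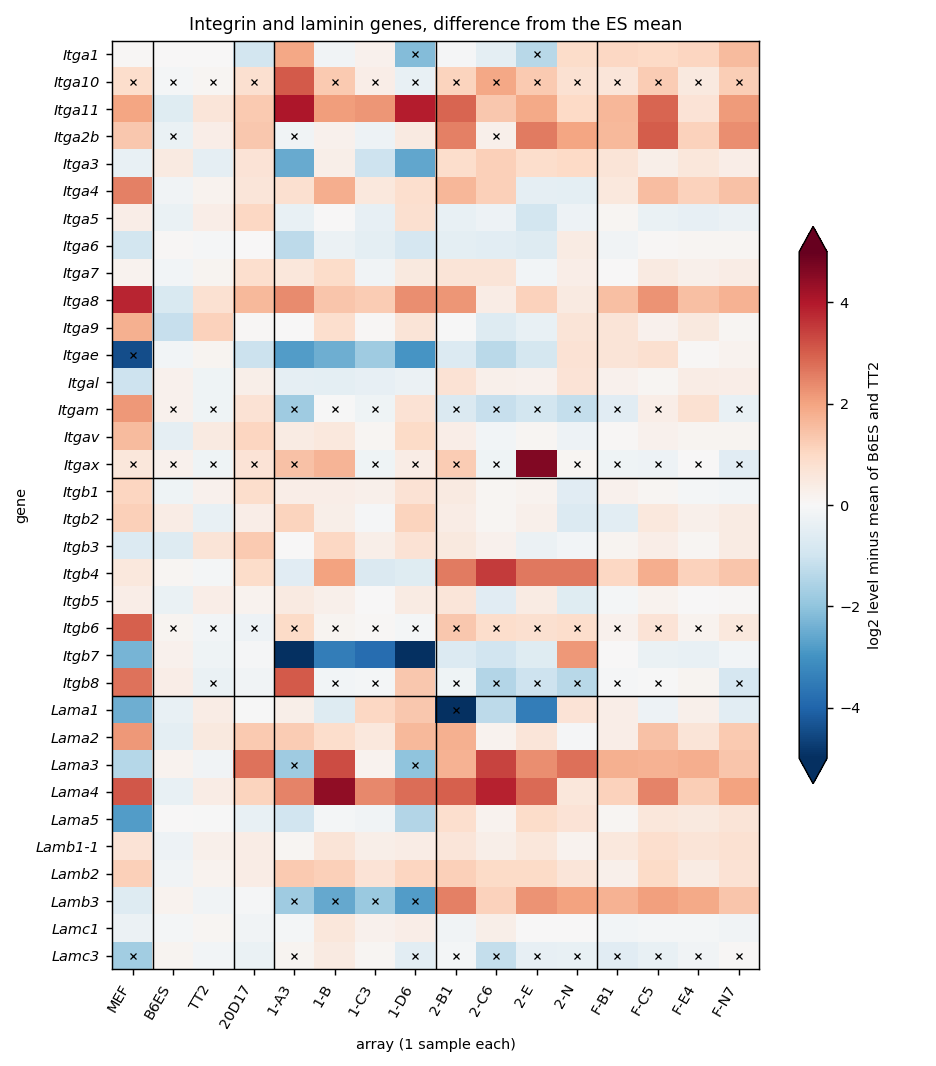
Log2 level of 34 of the tested genes (rows, from integrin alpha and beta chains to laminin chains) on the 16 arrays (columns), as a difference from the mean of B6ES and TT2; the colour scale ends at 5 in either direction and a cross marks an array on which the probe was not well above background. Itgb7 was lowest in the 4 iHAC1-iPS clones, while rows such as Itgb1, Itgb5 and Lamc1 stayed pale on every array.

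The alpha chain and the beta chain of the integrin alphaE beta7, a receptor for E-cadherin known from lymphocytes of epithelia, were both lower in iHAC1-iPS clones than in every other stem cell group tested. Itgb7, the beta7 chain (probe at chr15:102046450-102046509, mm9), read 2.24 in B6ES and 1.81 in TT2 and 1.98 in 20D17. In iHAC1-iPS clones it read -3.88 in 1-A3, -1.45 in 1-B, -1.79 in 1-C3 and -3.23 in 1-D6. These values do not overlap those of any other stem cell line, and the highest of them lay below the MEF value of -0.30. The difference from ES cells was -4.62 on the log2 scale (SE 0.82, 24.5-fold lower, adjusted p = 0.0026). It was -4.59 against iHAC2-iPS clones (SE 0.67, adjusted p = 0.00049) and -4.40 against iHAC-free lines (SE 0.67, adjusted p = 0.000474). All 3 calls on Itgb7 were kept under every alternative run. In bulk RNA, fewer cells with a transcript and less transcript per cell cannot be told apart, here or in any result that follows.

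Itgb7 in iHAC2-iPS clones read 1.36 in 2-B1, 1.06 in 2-C6, 1.41 in 2-E and 4.19 in 2-N. Clone 2-N stood above all other samples, and the iHAC-free line derived from it, F-N7, read 1.87, close to F-B1 at 2.04, F-C5 at 1.68 and F-E4 at 1.64. Itgae, the alphaE chain, read -2.40 in B6ES and -2.11 in TT2, and -5.03 in 1-A3, -4.70 in 1-B, -4.04 in 1-C3 and -5.19 in 1-D6. iHAC2-iPS clones were at -2.95 in 2-B1, -3.62 in 2-C6, -3.13 in 2-E and -1.52 in 2-N, and iHAC-free lines lay between -2.19 and -1.44. All 4 iHAC1-iPS clones were below all of these samples. Itgae was called lower in iHAC1-iPS clones than in ES cells (-2.49, SE 0.49, adjusted p = 0.00443), than in iHAC2-iPS clones (-1.94, SE 0.40, adjusted p = 0.00332) and than in iHAC-free lines (-2.91, SE 0.40, adjusted p = 0.000259). In MEFs the Itgae probe was not well above background. Of 7 blood cell markers, which include Ptprc (CD45), none was called in iHAC1-iPS clones against ES cells, and their mean log2 level lay between -2.18 and -1.55 in iHAC1-iPS clones and between -2.03 and -1.68 in ES cells. Against iHAC2-iPS clones 3 of the 7 were called higher in iHAC1-iPS clones, Ptprc (1.39), Csf1r (1.31) and Lyz2 (1.34), and Cd68 was called lower (-1.45). Against iHAC-free lines Gata1 alone was called, lower in iHAC1-iPS clones (-1.63). The part of blood cells in the Itgae and Itgb7 results was not tested. With normexp background correction iHAC1-iPS minus iHAC2-iPS clones gave -0.74 for Itgae, which was not called.

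The laminin-332 chains Lama3 and Lamb3 and the Itga3 and Itgb4 chains of its receptors were 4 of the 9 genes called lower in iHAC1-iPS than in iHAC2-iPS clones. Lamb3, the beta3 chain (probe at chr1:195167088-195167147, mm9), had no iHAC1-iPS array on which it was well above background, and read -6.59 in 1-A3, -7.39 in 1-B, -6.68 in 1-C3 and -7.62 in 1-D6. It was at -4.65 in B6ES and -5.00 in TT2, at -2.30 in 2-B1, -3.68 in 2-C6, -2.58 in 2-E and -2.82 in 2-N, and between -3.42 and -2.76 in iHAC-free lines. The order was thus iHAC1-iPS clones, then ES cells, then the other iHAC groups, and the first 2 of these did not overlap with each other or with the rest. For a probe without a measured level in a group, only a bound holds, the mean of the bright group over the mean of, on each array, the higher of the dim probe and the lowest signal well above background. On that bound Lamb3 was lower in iHAC1-iPS clones by at least 6.36-fold against iHAC2-iPS clones (adjusted p = 1.09e-05), at least 5.54-fold against iHAC-free lines (adjusted p = 8.63e-06) and at least 1.61-fold against ES cells (adjusted p = 0.00205). In iHAC2-iPS clones it was called higher than in ES cells by 1.98 (SE 0.38, adjusted p = 0.0113), and in iHAC-free lines it stood 1.78 higher than in ES cells (SE 0.38, adjusted p = 0.0608), which was not called. With normexp background correction none of these Lamb3 calls was kept and iHAC1-iPS minus iHAC2-iPS clones gave -0.97. The difference between iHAC2-iPS clones and ES cells was 2.15 without B6ES and 1.81 without TT2 and was then not called.

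Lama3, the alpha3 chain of laminin-332, read -5.95 in 1-A3, -0.91 in 1-B, -3.97 in 1-C3 and -6.16 in 1-D6, the first and last of these not well above background. iHAC2-iPS clones read -2.44 in 2-B1, -0.79 in 2-C6, -1.85 in 2-E and -1.40 in 2-N. Clone 1-B lay inside their range and the other 3 iHAC1-iPS clones lay below it. The difference was -2.63 (SE 0.90, adjusted p = 0.0371). It was not called without 1-A3 (-2.06), 1-C3 (-2.72), 1-D6 (-1.99), 2-C6 (-2.35), 2-E (-2.70) or 2-N (-2.55). The call was also lost when the fit held only the compared groups and with the mean of all Lama3 probes (-0.86). A second Lama3 probe read the other way there, higher in iHAC1-iPS clones, and was not called (adjusted p = 0.148). That second probe was well above background on 3 of 4 iHAC1-iPS arrays and on 0 arrays of iHAC2-iPS clones or iHAC-free lines. It was called higher in iHAC1-iPS clones than in iHAC-free lines, by at least 1.23-fold (adjusted p = 0.0296), where the main probe was not called (-1.76, adjusted p = 0.145).

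Of the laminin-332 receptors, Itgb4, the beta4 chain (chr11:115869557-115869616, mm9), was at -0.16 in B6ES and -0.38 in TT2 and at 0.64 in 20D17. In iHAC1-iPS clones it read -0.85 in 1-A3, 1.74 in 1-B, -0.98 in 1-C3 and -0.86 in 1-D6, so that 1-B alone lay above ES cells. In iHAC2-iPS clones it read 2.31 in 2-B1, 3.23 in 2-C6, 2.35 in 2-E and 2.35 in 2-N, above every other sample. iHAC1-iPS minus iHAC2-iPS clones gave -2.80 (SE 0.51, 6.96-fold lower, adjusted p = 0.00175), and iHAC2-iPS clones exceeded ES cells by 2.83 (SE 0.63, adjusted p = 0.02). The second of these calls was lost without B6ES (2.94, adjusted p = 0.0999), without TT2 (2.73, adjusted p = 0.117) and when the fit held only these 2 groups. A second Itgb4 probe on nearly the same bases and a further probe, which was well above background on 8 of the 16 arrays, were called the same way in both comparisons.

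Itga3, the alpha3 chain of alpha3 beta1 (chr11:94905987-94906046, mm9), read -3.02 in 1-A3, -0.19 in 1-B, -1.53 in 1-C3 and -3.09 in 1-D6. ES cells were at -0.05 in B6ES and -0.95 in TT2, inside this range. It was at 0.36 in 2-B1, 0.69 in 2-C6, 0.37 in 2-E and 0.50 in 2-N, above all iHAC1-iPS clones, and between -0.19 and 0.15 in iHAC-free lines. It was called lower in iHAC1-iPS clones than in iHAC2-iPS clones (-2.44, SE 0.52, adjusted p = 0.00389) and iHAC-free lines (-1.92, SE 0.52, adjusted p = 0.0123). A second Itga3 probe was called in both comparisons with -3.07 and -2.58. The remaining Itga3 probe, which lies nearer the 5′ end of the gene and was well above background on all 16 arrays, gave -0.14 and 0.40 and was not called. Of 5 markers of stratified epithelium, the tissue best known for laminin-332, Krt5 (-1.04) and Krt14 (-1.67) were called lower and Trp63 (1.17) higher in iHAC1-iPS than in iHAC2-iPS clones, Dsg3 was not well above background on any array, and the mean log2 level of the 5 lay between -5.44 and -4.63 in iHAC1-iPS clones and between -5.38 and -3.57 in iHAC2-iPS clones. The part of such cells in these results was not tested.

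Itga6, the alpha6 chain that pairs with beta1 or beta4, was not called with its main probe: it read 3.40 in B6ES and 3.31 in TT2, between 2.06 and 3.06 in iHAC1-iPS clones and between 2.71 and 3.75 in iHAC2-iPS clones.

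Lama5, the alpha5 chain of laminins that mouse ES cells secrete (chr2:179911062-179911076, mm9), read 3.39 in B6ES and 3.34 in TT2. It was at 2.42 in 1-A3, 3.28 in 1-B, 3.18 in 1-C3 and 1.90 in 1-D6 and at 4.19 in 2-B1, 3.53 in 2-C6, 4.27 in 2-E and 4.06 in 2-N. iHAC1-iPS clones lay below iHAC2-iPS clones without overlap, by 1.32 on the log2 scale (difference -1.32, SE 0.29, adjusted p = 0.00446), and below iHAC-free lines by 1.12 (difference -1.12, SE 0.29, adjusted p = 0.00956). Without 1-D6 the latter was -0.85, under 2-fold and not called. Lama5 was 0.56 in MEFs and lay between 3.46 and 4.00 in iHAC-free lines.

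Itga2b, the alphaIIb chain of the platelet fibrinogen receptor, read -5.22 in 1-A3, -4.83 in 1-B, -5.31 in 1-C3 and -4.62 in 1-D6, and -5.37 in B6ES and -4.73 in TT2. It was at -2.53 in 2-B1, -4.80 in 2-C6, -2.45 in 2-E and -3.07 in 2-N, and at -3.43 in F-B1, -2.03 in F-C5, -3.88 in F-E4 and -2.71 in F-N7. In B6ES, 1-A3 and 2-C6 the probe was not well above background, so these readings are not measured levels. Clone 2-C6 thus lay among the iHAC1-iPS clones only on such a reading. The other iHAC2-iPS and iHAC-free samples lay above the iHAC1-iPS clones. Itga2b was called lower in iHAC1-iPS clones than in iHAC2-iPS clones (-1.78, adjusted p = 0.0173) and iHAC-free lines (-1.98, adjusted p = 0.00968), neither with normexp background correction. The platelet markers Gp9 and Gp1ba were well above background on 0 arrays of the iHAC groups. The platelet markers Pf4 and Ppbp were, and Ppbp was called higher in iHAC1-iPS clones in both comparisons (1.74 and 1.42).

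**Figure D2:**
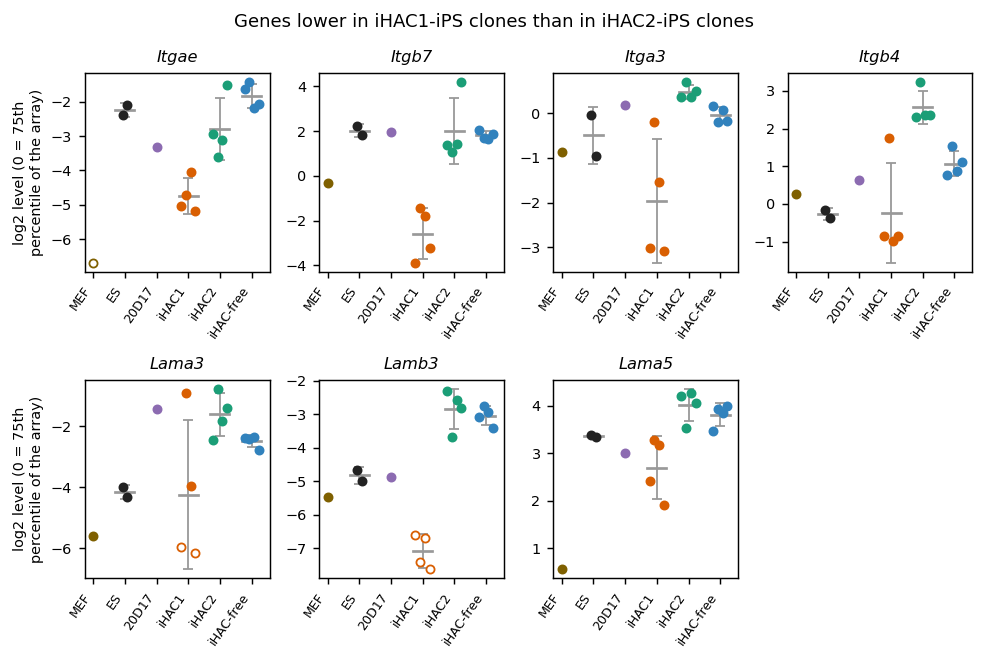
Log2 level (0 is the 75th percentile of the array) of 7 genes called lower in iHAC1-iPS than in iHAC2-iPS clones, 1 point per sample, open where the probe was not well above background, with grey bars for the group mean and SD where a group has more than 1 sample. In Itgb7 all 4 iHAC1-iPS points lie below those of the other stem cell lines, and in Itgb4 and Lama3 the highest iHAC1-iPS point is 1-B.

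Of the 6 members called lower in iHAC1-iPS clones than in both iHAC2-iPS clones and iHAC-free lines, all but Itgae, 5 genes, had a promoter entry in RefSeq (GRCm38.p6), as had 23 of the 36 members. The 200 bases before their first listed start are shown, 5′ to 3′ on the strand of the gene, because these genes differed together. They lie at chr1:193301794-193301993 (plus strand, Lamb3), chr15:102231936-102232135 (minus, Itgb7), chr11:102469884-102470083 (minus, Itga2b), chr11:95076715-95076914 (minus, Itga3) and chr2:180225860-180226059 (minus, Lama5). Capitals mark GGGCGG, the GC box, and CAGGTG, the E-box read by Snail and Zeb factors, on either strand. TGANTCA, the AP-1 motif, was searched as well.
Lamb3: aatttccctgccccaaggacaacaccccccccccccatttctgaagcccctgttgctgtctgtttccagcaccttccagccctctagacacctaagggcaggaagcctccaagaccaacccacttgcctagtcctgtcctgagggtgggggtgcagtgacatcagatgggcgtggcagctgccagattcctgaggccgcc
Itgb7: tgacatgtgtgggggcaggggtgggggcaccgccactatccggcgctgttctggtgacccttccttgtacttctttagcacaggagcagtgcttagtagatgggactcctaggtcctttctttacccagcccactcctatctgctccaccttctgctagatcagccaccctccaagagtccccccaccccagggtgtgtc
Itga2b: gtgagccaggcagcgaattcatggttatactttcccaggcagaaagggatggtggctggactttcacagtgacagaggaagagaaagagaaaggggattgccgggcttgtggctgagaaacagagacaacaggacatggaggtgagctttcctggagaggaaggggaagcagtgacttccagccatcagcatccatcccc
Itga3: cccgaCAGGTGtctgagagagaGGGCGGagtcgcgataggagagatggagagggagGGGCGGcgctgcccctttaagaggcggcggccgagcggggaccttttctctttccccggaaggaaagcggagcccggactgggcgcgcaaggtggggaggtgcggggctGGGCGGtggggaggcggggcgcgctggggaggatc
Lama5: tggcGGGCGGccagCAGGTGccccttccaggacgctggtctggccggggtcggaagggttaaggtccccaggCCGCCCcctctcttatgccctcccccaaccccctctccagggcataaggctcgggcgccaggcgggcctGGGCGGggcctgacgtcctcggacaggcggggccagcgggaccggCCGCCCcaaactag
Lama5 held 4 GC boxes and 1 E-box and Itga3 held 3 and 1, with no overlap between matches, and Lamb3, Itgb7 and Itga2b held none of the 3 motifs. Of 32851 promoter windows of the same length, 31.0% held GGGCGG, 13.9% held CAGGTG and 5.48% held TGANTCA. No motif searched was in all 5 windows.

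Among the genes higher in iHAC1-iPS clones than in ES cells were a collagen receptor chain, a receptor chain of mesenchyme and laminin chains of blood vessel and muscle basement membranes. Itga11, the alpha11 chain of a fibroblast collagen receptor, read -1.03 in B6ES and 0.20 in TT2. In iHAC1-iPS clones it read 3.61 in 1-A3, 1.66 in 1-B, 1.78 in 1-C3 and 3.50 in 1-D6, all above ES cells and above the 1.54 of MEFs. The difference from ES cells was 3.05 (SE 0.75, 8.28-fold, adjusted p = 0.0138). Lama4, the alpha4 chain of vascular laminins, was at -2.21 in B6ES and -1.48 in TT2 against 0.65 in 1-A3, 2.60 in 1-B, 0.54 in 1-C3 and 0.93 in 1-D6, a difference of 3.03 (SE 0.80, adjusted p = 0.019) that both further tested Lama4 probes also gave as a call. Itga8, the alpha8 chain known from kidney mesenchyme and smooth muscle, read -3.89 in B6ES and -2.38 in TT2 against -0.76 in 1-A3, -1.73 in 1-B, -1.85 in 1-C3 and -0.81 in 1-D6, and was 1.84 higher (SE 0.55, adjusted p = 0.0334). Lamb2, the beta2 chain of laminins at neuromuscular junctions and in the kidney filter, read 0.68 in B6ES and 1.07 in TT2 against 2.18 in 1-A3, 2.05 in 1-B, 1.54 in 1-C3 and 1.94 in 1-D6, and was 1.06 higher (SE 0.24, adjusted p = 0.0101). In all 4 genes the iHAC1-iPS clones and the ES lines did not overlap. This also held for Itga4, Itgb1 and Lama2, which were higher in iHAC1-iPS clones but not called.

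These 4 calls were lost without B6ES, a fit with TT2 as the only ES array, in which calls over all probes also fell. Without B6ES the differences were 2.43 for Itga11, 2.66 for Lama4, 1.09 for Itga8 and 0.86 for Lamb2, all still higher in iHAC1-iPS clones. Lama4 was not called without TT2 either (3.39, adjusted p = 0.0609), Itga8 not without 1-A3 (1.67) or 1-D6 (1.68), and Lamb2 was under 2-fold without 1-A3 (0.97). The mean of the 14 fibroblast markers was also lowest in B6ES, though single markers such as Twist2 and Pdgfrb were lower in 2-N. Of these markers 6 were called higher in iHAC1-iPS clones than in ES cells. The part of fibroblast RNA in the 4 calls was not tested. Of 5 endothelial markers 3 were called lower in iHAC1-iPS clones than in ES cells and none higher, and of 5 smooth muscle markers none was called. With the slide as a block the 4 calls were lost as well. The only iHAC1-iPS clone on the slide of the ES arrays was 1-D6, which was above the ES mean by 3.92 for Itga11, 2.77 for Lama4, 2.32 for Itga8 and 1.07 for Lamb2. Against iHAC2-iPS clones and iHAC-free lines none of the 4 was called. iHAC2-iPS clones and iHAC-free lines also stood above ES cells without overlap for Itga11 (1.78 and 1.85, adjusted p = 0.129 and 0.192), Lama4 (2.56 and 1.72, adjusted p = 0.0562 and 0.246) and Lamb2 (0.93 and 0.59, adjusted p = 0.0329 and 0.202), both Lamb2 values being under 2-fold. For Itga8 iHAC-free lines did so too (1.74, adjusted p = 0.122), while iHAC2-iPS clones overlapped ES cells (1.05, adjusted p = 0.217). Itgb4, Lama5 and Lamb3 also stood above ES cells without overlap in both groups. So did the main probe of Lama3 (2.55 in iHAC2-iPS clones and 1.68 in iHAC-free lines, neither called). The second Lama3 probe lay below ES cells without overlap in both groups, where it was not well above background. Itga10 and Itgb6 stood above ES cells in both groups as well, but were not well above background on any of these arrays. Of the 35 tested members, 28 were higher than ES cells in iHAC-free lines and 24 in iHAC2-iPS clones, at any size. The share of all gene names that were higher was not counted, and their median differences were 0.017 and 0.074. Both counts rest on B6ES and TT2 as the only ES arrays, so they are not read as a result about the members. Groups without overlap come easily with only B6ES and TT2, and their share over all gene names was not counted.

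**Figure D3:**
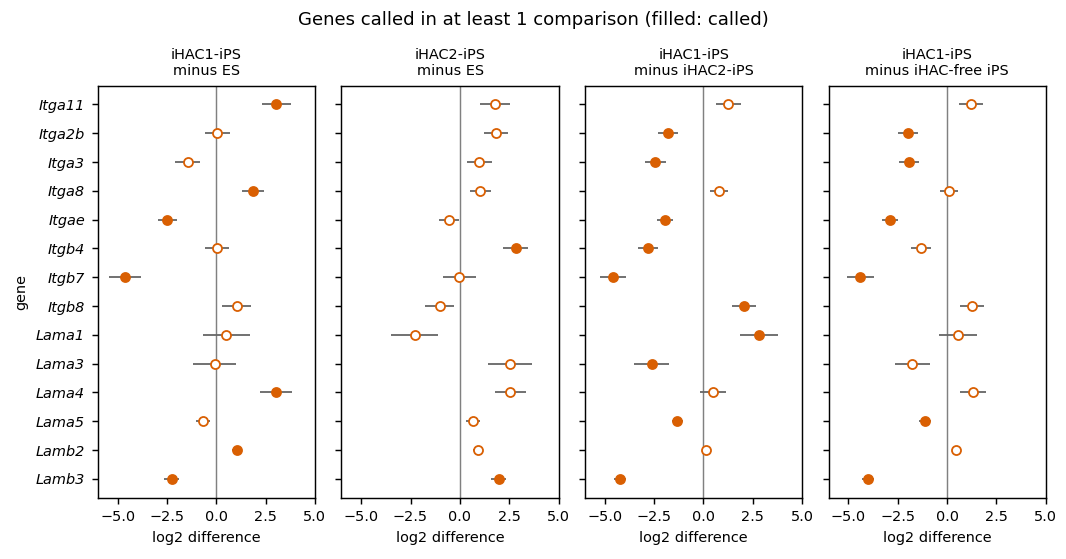
Differences on the log2 scale (points) with their standard errors from the limma fit (bars) for 14 of the 15 genes called in at least 1 comparison, in 4 comparisons; filled points were called. Itgb7 lies near -4.62, -4.59 and -4.40 in the comparisons with iHAC1-iPS clones and at -0.02 between iHAC2-iPS clones and ES cells.

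The 2 members called higher in iHAC1-iPS than in iHAC2-iPS clones were Lama1 and Itgb8. Lama1, the alpha1 chain of laminin-111 of the early embryo, read -6.08 in 2-B1, where it was not well above background, -2.25 in 2-C6, -4.41 in 2-E and -0.27 in 2-N. Every other stem cell sample lay between -1.60 and 0.41, so 2-N was inside that range and the other 3 iHAC2-iPS clones were below it. The difference was 2.81 (SE 0.96, adjusted p = 0.0376) and was not called without 2-B1 (1.87), 2-E (2.42), 1-A3 (2.88), 1-C3 (2.64) or 1-D6 (2.52). Of the markers of extraembryonic endoderm, whose basement membrane is rich in laminin-111, Afp was called higher and Amn lower in iHAC1-iPS than in iHAC2-iPS clones, and Gata4 was not well above background in either. Against ES cells 3 of 9 such markers were called lower in iHAC2-iPS clones, Sox7 (-2.75), Cubn (-1.71) and Afp, the last with 0 iHAC2-iPS arrays well above background, and none was called higher. The part of such cells in the Lama1 result was not tested. Itgb8, a beta chain that with alphav activates TGF-beta, was well above background on 0 of 4 iHAC2-iPS arrays and on 2 of 4 iHAC1-iPS arrays, 1-A3 at -2.48 and 1-D6 at -4.19. In iHAC1-iPS clones it was higher by at least 1.19-fold (adjusted p = 0.019), which was lost without 1-D6 (1.96 on the log2 scale, adjusted p = 0.0507), with normexp background correction (0.40) and when the fit held only these 2 groups (adjusted p = 0.0626). Its second probe gave 0.41 (adjusted p = 0.41).

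**Figure D4:**
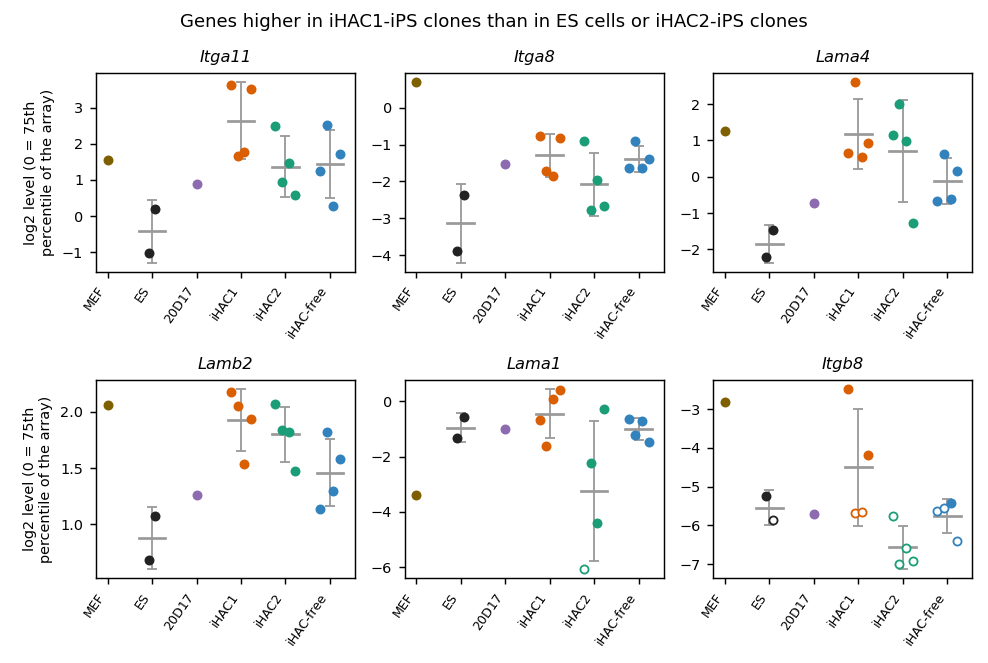
Log2 level (0 is the 75th percentile of the array) of the 6 genes called higher in iHAC1-iPS clones than in ES cells or iHAC2-iPS clones, 1 point per sample, open where not well above background, with grey bars for the group mean and SD. In Itga11, Itga8, Lama4 and Lamb2 both ES points lie below the 4 iHAC1-iPS points, and in Lama1 the 2-B1, 2-C6 and 2-E points lie below all other stem cell points.

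Clone 1-B was the highest of the 4 iHAC1-iPS clones for Itgb4, Itga3, Itgb7, Lama3, Lama4 and Lama5, by a wide gap for Itgb4 (1.74, next -0.85) and a narrow one for Lama5 (3.28, next 3.18) and Itgb7 (-1.45, next -1.79), while for Lamb3 it lay within the range of the others. Without 1-B, Itga3 (-2.04, adjusted p = 0.00671) was also called lower in iHAC1-iPS clones than in ES cells, and 9 members were called there. Against iHAC-free lines Itgb4 (-1.97) and Lama3 (-2.87) were called lower without it as well, again 9 members in all. Clone 2-N was the highest of the 4 iHAC2-iPS clones for Itgb7, Itgae, Itga6 and Lama1 and the lowest for Lama4 and Lamb2. Without 2-N, Lama4 (3.21) and Lamb2 (1.04) were called higher and Lama1 (-3.29) lower in iHAC2-iPS clones than in ES cells.

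Loss of the vector could be followed within lines, since each iHAC-free line came from 1 of the iHAC2-iPS clones. Itgb4 was lower in the iHAC-free line in 4 of 4 lines, where it read between 0.78 and 1.53, and the clone exceeded its derivative by 1.25 to 1.71. The groups did not overlap, but the mean difference of 1.49 (SE 0.51) had an adjusted p of 0.165 and was not called, nor was any other member with the line of origin as a replicate block, which gave 0 calls. iHAC-free lines still stood above both ES lines for Itgb4, by 1.34 on average. Itgb4 was not the only member to go 1 way in all lines. Itga3 was also lower in each iHAC-free line, by 0.21 to 0.89. Itga1 was higher in each (iHAC2-iPS minus iHAC-free -1.43, adjusted p = 0.294), though not well above background in 2-E. In both genes the groups did not overlap and no call was made. The share of all gene names with such a pattern was not counted. Lama1 was higher in the iHAC-free line than in its clone by 1.02 for F-C5 and 3.68 for F-E4, and lower by 1.20 for F-N7. It was higher in F-B1 as well, but in its clone 2-B1 the probe was not well above background, so that no size is given. In iHAC-free lines Lama1 read between -1.47 and -0.64, which overlapped ES cells at -1.33 and -0.58. Lama1 had an adjusted p of 0.241 in this comparison. Without 2-N, Lama1 (-3.23, adjusted p = 0.033) and Itgae (-1.40, adjusted p = 0.0209) were called lower in iHAC2-iPS clones than in iHAC-free lines.

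**Figure D5:**
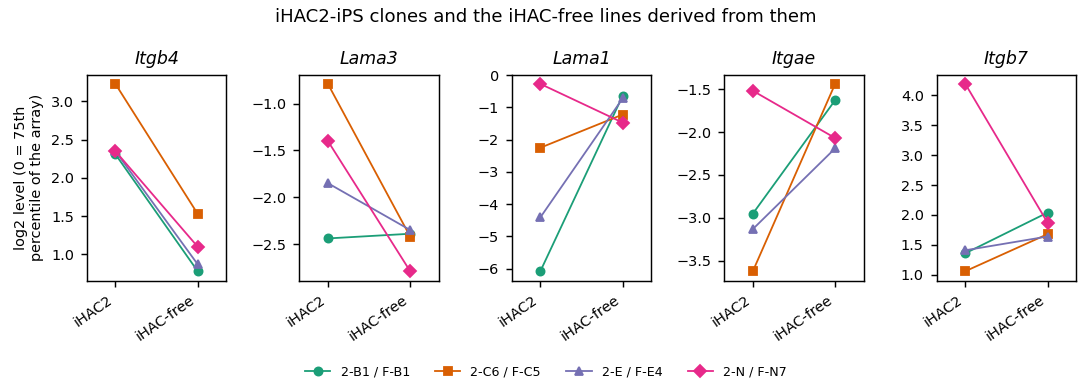
Log2 level (0 is the 75th percentile of the array) of 5 genes in each iHAC2-iPS clone and in the iHAC-free line derived from it, joined by a line, with 1 colour and marker per line of origin. Itgb4 is lower in the iHAC-free line in 4 of 4 lines, Lama1 is higher in 3 of 4 iHAC-free lines, and Itgb7 is set apart by 2-N at 4.19.

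For 9 chains of widely expressed receptors and laminins no difference was called on the main probe. Itgb1, the beta1 chain shared by most laminin, collagen and fibronectin receptors, read between 1.22 in 2-N and 2.65 in 20D17 among the stem cells and 2.86 in MEFs. Itgb5, a partner of alphav in vitronectin binding, lay between 4.12 and 5.32 over all samples, and Lamc1, the gamma1 chain of most laminins, between 3.83 and 4.69. Together with Itga5 (fibronectin receptor), Itga6, Itga7 (muscle laminin receptor), Itgav, Itgb3 and Lamb1-1 (the beta1 chain), they make up these 9 genes, called in none of the 6 comparisons on the main probe. Itga5 lay between -0.70 in 2-E and 1.26 in 20D17, and Itga7 between -2.37 in 1-C3 and -1.27 in 1-B. Itgav lay between 0.18 in B6ES and 2.23 in MEFs, and Itgb3, a partner of alphav and alphaIIb, between 1.29 in MEFs and 3.28 in 20D17. Lamb1-1 was lowest in B6ES at 1.96 and highest in F-C5 at 3.05. The differences of the 9 genes lay between -0.75 for Itga6 and 0.69 for Lamb1-1, and 4 of the 54 tests had an unadjusted limma p under 0.05. Over all gene names between 19.2% and 48.2% had such a p, by comparison. Itga6 had an adjusted p of 0.0342 in iHAC1-iPS clones against iHAC-free lines at a difference of -0.75, under 2-fold, and a further probe of Itga6 was called there at -1.16 (adjusted p = 0.00488). A p that misses the threshold does not show that levels were equal.

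The other 11 tested members were called nowhere on their main probe, and where both groups had an array well above background their differences lay between -1.43 and 1.18, both for Itga1. They were the alpha chains Itga1, Itga10, Itga4, Itga9, Itgal, Itgam and Itgax, the beta chains Itgb2 and Itgb6, and Lama2 and Lamc3. Itga10, Itgam, Itgax, Itgb6 and Lamc3 were well above background on 1 to 5 of the 16 arrays. Itgal, the alpha chain of the leukocyte integrin LFA-1, was 0.88 lower in iHAC1-iPS than in iHAC2-iPS clones (adjusted p = 0.00144), under 2-fold. Its second probe was called lower in iHAC1-iPS clones than in ES cells (-2.36, adjusted p = 0.0298) and iHAC-free lines (-2.43, adjusted p = 0.0054), while its main probe gave -0.41 and -0.66. Over the members, 18 genes had more than 1 tested probe, and 10 of the 16 calls on further probes went with a call of the main probe in the same direction.

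MEFs and 20D17 had 1 array each, so their differences from the ES mean are values without a test. In MEFs 14 of 35 members were at least 2-fold higher and 7 lower, against 20.6% and 23.1% of all gene names (43.7% in all). The members higher in MEFs included Itga8 (0.69, against -3.89 in B6ES and -2.38 in TT2) and Lama4 (1.27). Those lower included Itgae, Lama5 (0.56, 6.98-fold lower than the ES mean), Lama1 (-3.40, 5.42-fold lower) and Itgb7 (5.02-fold lower). In 20D17, 9 members were at least 2-fold higher and 1 lower, against 6.99% and 4.07% of all gene names (11.1% in all), with Lama3 (-1.44, against -4.00 and -4.33 in ES cells) 6.63-fold higher on its main probe and Itgae 2.09-fold lower.

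Genes that work with integrins and laminins were read in the same fit from lists of matrix partners (13 tested of 14), other laminin receptors (5) and adaptors and signalling proteins (28). In iHAC1-iPS clones against ES cells 3 matrix partners were called higher and none lower, led by the collagen IV chains Col4a2 (1.64, adjusted p = 0.0111) and Col4a1 (1.58, adjusted p = 0.00887). Of the other laminin receptors Bcam, a receptor for laminin alpha5, was lower by 3.30 (difference -3.30, adjusted p = 0.00661), Sdc4 was lower by 1.34 (difference -1.34) and Sdc1 was 1.21 higher. Of the adaptors Fermt1 (kindlin-1) was lower (-3.78, adjusted p = 0.0113), well above background on 1 of 4 iHAC1-iPS arrays, and Ptk2b was lower (-1.13, adjusted p = 0.00495). Parvg was called higher but was not well above background on any array of either group. Bcam, Sdc4, Fermt1 and Ptk2b were called lower and Sdc1 higher in iHAC1-iPS clones also against iHAC2-iPS clones and against iHAC-free lines. In those 2 comparisons 4 and 1 of 13 matrix partners were called, all higher, and 3 and 4 of 28 adaptors, all lower, against 20.3% and 20.5% of all gene names. The adaptors in both comparisons, and the matrix partners against iHAC-free lines, thus had a smaller share called than all gene names. So had the adaptors in iHAC1-iPS clones against ES cells, with 3 of 28 against 14.7%. Against ES cells, iHAC2-iPS clones and iHAC-free lines had no matrix partner or other laminin receptor called and Parvg as the 1 adaptor called, and between these iHAC groups no partner was called.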

How the data were processed

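The authors hybridized 16 Cy3-labelled samples to 1-colour arrays and extracted spots with Agilent Feature Extraction 10.7.1.1 or 10.7.3.1, by scan session. Their deposited scanner output holds a background-subtracted intensity for each spot, on a linear scale. The deposited value table holds the authors' log2 values (GeneSpring), used as an alternative. Its columns had slopes of 1.00 against the scanner values, and its median per array lay between -0.325 and 0.279. Signals of non-control spots were averaged per probe, and log2 was taken minus the array's 75th percentile. The 31415 probes well above background on at least 1 array were fitted in limma 3.58.1 (R 4.3.3) with 6 groups over all arrays. This was tested on simulated data. Sums and figures used Python 3.11.15 and matplotlib 3.10.9. Positions of probes were taken from the scanner output (mm9). The precision is set by the number of arrays.

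A gene was read by its brightest tested probe. Named were 15 members fixed by role and the 14 called members with the largest differences, 24 genes in all, since these sets overlap. Partner genes were named by the largest called differences. The rule for members reads only names, but members and lists were chosen with earlier results of these data known. The iHAC-free lines pair with their parental iHAC2-iPS clones, as the study's table of clones states. The deviations of such pairs from their group means correlated between -0.219 and 0.0797, and samples of different lines between -0.105 and 0.216. There were 0 sample columns left unused. Alternatives were normexp (offset 50), quantile normalization, the value table, no or a strict dim-probe filter, the slide as a block, only the compared groups, the mean of a gene's probes, the replicate block, and leaving out each array. The values of 1 member gene are not reported here, though it is part of the counts.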

Additional observations from a re-analysis of the deposited data

Results flagged for a closer look

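Of 105 groups of 4 samples (35 genes in iHAC1-iPS, iHAC2-iPS and iHAC-free iPS cells), 6 held a sample far from the other 3 by Dixon's test, and chance alone marks about 1 in 20, or 5.25. Itgb4 in the iHAC1-iPS clone 1-B was at 1.74, next to -0.85 for the nearest clone. Itgb4 in the iHAC2-iPS clone 2-C6 was at 3.23, next to 2.35. Itgb7 in 2-N was at 4.19, next to 1.41, and Itga6 in 2-N was at 3.75, next to 2.88. In the iHAC-free line F-N7, Itga1 was at -2.05, next to -2.56, and Lama3 was at -2.79, next to -2.42. All of these are log2 levels of probes well above background in all 4 samples.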

How the results depend on the processing

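Of the 26 calls on members, none changed direction. The calls kept under every alternative run were 2 of 7 in iHAC1-iPS against ES cells, 0 of 2 in iHAC2-iPS against ES cells, 5 of 11 in iHAC1-iPS against iHAC2-iPS and 3 of 6 in iHAC1-iPS against iHAC-free iPS cells. Itgae, which is among the first and the last of these, was not tested under the strict filter. Counts moved by over 1.5 times as follows. iHAC1-iPS against ES gave 3 with the slide as a block. iHAC2-iPS against ES gave 1 with normexp, 4 without a filter, 5 with the slide as a random block and 0 with only the compared groups. iHAC-free iPS against ES gave 1 with the slide as a random block. iHAC1-iPS against iHAC2-iPS gave 7 with normexp and 5 with the strict filter, under which 23 members were tested. Members past 2-fold from the ES mean went from 21 to 12 with normexp and 13 with the strict filter in MEFs, and from 10 to 3 with normexp in 20D17. The causes were not tested.

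Leaving out each array in turn gave 3 to 9 calls in iHAC1-iPS against ES cells (lowest without B6ES, highest without 1-B), 0 to 5 in iHAC2-iPS against ES cells (0 without B6ES or without TT2, 4 without 2-C6, 5 without 2-N), 0 in each case in iHAC-free iPS against ES cells, 8 to 11 in iHAC1-iPS against iHAC2-iPS cells, 5 to 9 in iHAC1-iPS against iHAC-free iPS cells and 0 to 2 in iHAC2-iPS against iHAC-free iPS cells (2 without 2-N). Where 1 ES array was left, it was assumed to vary like the other groups. With the parental clone as a replicate block, iHAC2-iPS against iHAC-free iPS cells gave 0 calls, as without it. Normexp moved the median of all probes from 0.02 to 0.189 in iHAC1-iPS against iHAC-free iPS cells. It also moved that median from 0.051 to 0.16 in iHAC2-iPS against iHAC-free iPS cells and from 0.016 to -0.159 in iHAC-free iPS against ES cells. Dim probes limit the differences of Lamb3, Itgb8, Lama3, Itga2b, Itgae and Lama1. Normexp took Itgae from -2.49 to -1.015 in iHAC1-iPS against ES cells, where it was still called. It took Lama1 from 2.81 to 1.40 in iHAC1-iPS against iHAC2-iPS cells, also still called.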
